A study of Mus musculus with 8 samples.

Results

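The genes described here encode 39 lysosomal proteins, soluble enzymes of the lumen together with proteins of the lysosomal membrane, and were chosen by name as a module of shared function. All 39 were found in a table of 13869 genes from the heart ventricles of E14.5 mouse embryos, and all 39 passed the filter on low values that left 13740 genes for testing. The 8 libraries of polyadenylated RNA fell into a mutant group of 4, labelled Mib1flox; TnT-Cre, in which floxed Mib1 was deleted by Cre under the cardiac troponin T promoter, and a wild-type group of 4 labelled as siblings. Mib1 encodes a ubiquitin ligase that Notch ligands need in order to signal, and the promoter is active in cardiomyocytes, so the other cells of the ventricle were not targeted. Ventricles of 16 hearts per genotype had been pooled to make the 4 replicates, and a library is therefore a pool of hearts. The sources used here do not give whether the wild-type siblings carried Cre or a floxed allele, or whether the pools came from separate litters, so p-values measure the spread between pools, which may be technical.

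Lysosomes break down proteins, glycosaminoglycans, glycogen and lipids that reach them by endocytosis or autophagy. Most soluble enzymes travel there on mannose phosphate tags that are bound by sorting receptors, and an acid lumen, kept by a proton pump, lets them work. Factors of the TFEB family bind short E-box sites in many lysosomal promoters and can raise these genes together. Loss of the acid glucosidase Gaa causes glycogen storage in heart muscle, which is the best known lysosomal disease of the myocardium. Macrophages, which are present in the embryonic heart, are rich in lysosomes and in several cathepsins.

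The libraries held 6307634 to 11506082 counts, and a floor of 3 counts stood at 0.265 to 0.472 CPM, the unit used throughout, which scales a count by the normalized size of its library. That floor covers counting error only. The 14 cardiomyocyte markers summed to 48534 to 54887 CPM over the 8 libraries, so every library held RNA of heart muscle. Mib1 (ENSMUSG00000024294) stood at 106, 103, 95.4 and 96.4 CPM in mutant replicates 1 to 4 and at 150, 166, 161 and 167 CPM in wild type, without overlap. In total 308 of 13740 genes were called by limma at an adjusted p under 0.05, 172 lower (1.25%) and 136 higher (0.99%) in the mutants.

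Most lysosomal genes were slightly lower in the mutant ventricles, but the module did not move as one. Of the 39 genes 3 fell and none rose: Gaa, the glucosidase that degrades glycogen, Ctsd, the aspartic protease cathepsin D, and Grn, which encodes progranulin, a secreted protein that also reaches the lysosome. The other 36 were not called. The 3 falls were 7.69% of the module, against a background of 1.25% of all genes tested called lower and 2.24% called in either direction. Among the 2106 genes with a mean of at least 100 CPM, the range in which all 3 lie, 1.99% were called lower. The 7.69% covers all 39 genes, many of which lie below 100 CPM, so these shares are over unlike ranges.

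Differences below 0 were found for 30 of the 39 genes (76.9%), against 49.7% of all genes tested. Of all genes with a mean of at least 100 CPM, a range that many of the 39 do not reach, 45.8% lay below 0. The median difference was −0.11 on the log2 scale, against 0.00092 for all genes tested. Every mutant library lay below every wild-type library for 9 genes (23.1%, background 4.65%), namely Gaa, Ctsd, Grn, Ctsb, Ctsl, Tpp1, Glb1, Npc2 and Lamp1. The opposite was found for 2 membrane protein genes, Npc1 and Scarb2 (5.13%, background 4.27%). Over all genes tested 8.92% had groups without overlap in either direction. The range within the module ran from −0.45 for Gaa to 0.23 for Npc1. The median stayed between −0.13 and −0.087 in the 8 fits with a library left out.

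**Figure D1:**
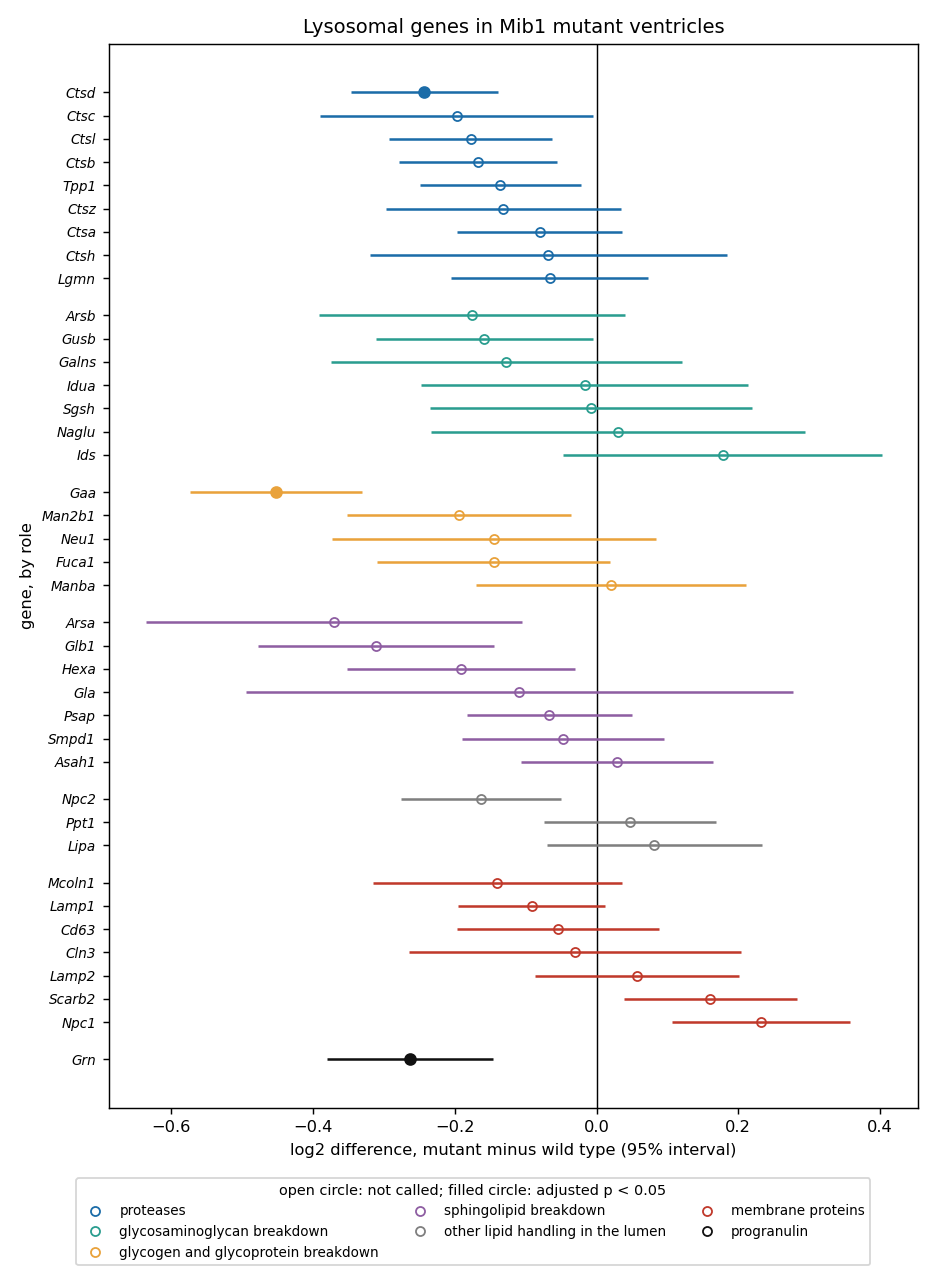
Log2 difference between mutant and wild type (x axis) for the 39 lysosomal genes (y axis, grouped by role), with the 95% interval of the limma fit as a line. Filled circles mark Gaa, Ctsd and Grn, the 3 genes called at an adjusted p under 0.05, and Npc1 lies farthest to the right at 0.23.

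By the median over the genes, the shift was seen in 3 of the 4 mutant libraries. For each gene the deviation of a library from the mean over all 8 was taken, and the median over the 39 genes was −0.098, −0.080, 0.016 and −0.041 in mutant replicates 1 to 4. It was 0.080, 0.029, 0.080 and 0.013 in wild-type replicates 1 to 4. Mutant replicate 3 thus stood between the wild-type libraries, above wild-type replicate 4, and the groups overlapped. The number of genes above their own mean was 12, 8, 20 and 12 in the mutants and 28, 26, 29 and 21 in wild type, which did not overlap. The summed level of the 39 genes was 3933 ± 94.6 CPM in wild type and 3631 ± 85.8 CPM in the mutants (SD, n = 4), a difference of −7.68%. These sums did not overlap either, the mutants reaching at most 3747 CPM and wild type at least 3819 CPM. Abundant genes weigh most in such a sum, here Psap, Ctsd, Lamp1 and Ctsb.

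**Figure D2:**
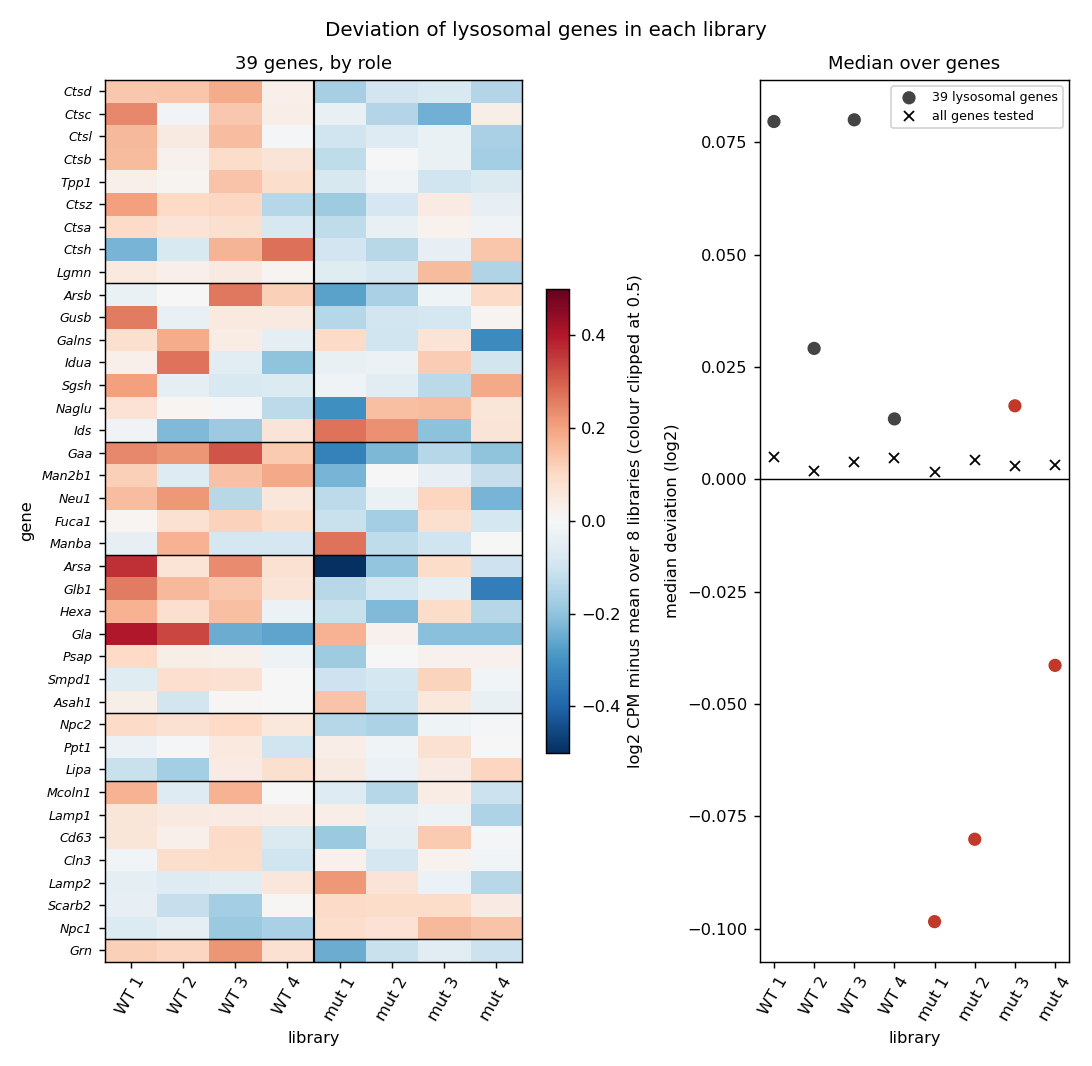
Left, deviation of log2 CPM from the mean over 8 libraries (colour) for the 39 genes (rows, separated by role) in wild-type (WT) and mutant (mut) replicates 1 to 4. Right, the median of these deviations per library (wild type grey, mutant red) with that of all genes tested (crosses). The mutant medians lie between −0.098 and 0.016 and the wild-type medians between 0.013 and 0.080.

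Within the groups the genes varied together only weakly. After removal of the group means, the median correlation over the 741 gene pairs of the module was 0.14, and 59.2% of the pairs were above 0. Over all pairs of genes tested the median was −0.00045 and 49.97% were above 0. These values describe 8 libraries that all genes share.

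Gaa (ENSMUSG00000025579) showed the largest difference of the module. It stood at 188, 185, 198 and 174 CPM in wild-type replicates 1 to 4 and at 126, 136, 144 and 138 CPM in the mutants. The groups did not overlap, and mutant replicate 1 was the lowest library. The wild-type mean of 187 ± 9.77 CPM was 1.37-fold the mutant mean of 136 ± 7.53 CPM (SD, n = 4). On the log2 scale Gaa fell by 0.45 ± 0.056 (SE), at an adjusted p of 0.000444 by limma. Gaa kept its call in all 8 fits with a library left out and in all 12 other fits at the same threshold.

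Ctsd (ENSMUSG00000007891), the protease with the highest level per kb of transcript in the module (186 CPM per kb in wild type), stood at 400, 400, 413 and 371 CPM in wild type and at 324, 341, 345 and 328 CPM in the mutants. The highest mutant library lay below the lowest wild-type library, wild-type replicate 4. On the log2 scale Ctsd fell by 0.24 ± 0.048 (SE), at an adjusted p of 0.0174 by limma, and its mean fell by 15.5%. Of the exon bases of Ctsd 34.4% are shared in GENCODE M21 with Gm49369, a gene model on the same strand that has no row in the table. The reads were processed on another build, and the sources used here do not give whether this model was counted. The part of the overlap in the level of Ctsd was not tested.

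Grn (ENSMUSG00000034708) stood at 203, 202, 218 and 197 CPM in wild type and at 157, 173, 180 and 173 CPM in the mutants. No mutant library reached the wild-type range. On the log2 scale Grn fell by 0.26 ± 0.054 (SE), at an adjusted p of 0.0212 by limma, and its mean fell by 16.6%. The calls of Ctsd and Grn depended on the libraries used. Ctsd lost its call when wild-type replicate 1, 2 or 3 was left out (adjusted p = 0.0683, 0.0701 and 0.0769), and Grn lost it in the same fits and without mutant replicate 2 (adjusted p = 0.0694, 0.0650, 0.0871 and 0.0582). Without wild-type replicate 1, 2 or 3 the called genes of the module were thus reduced to Gaa, while the calls over all genes dropped to 146, 147 and 161.

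**Figure D3:**
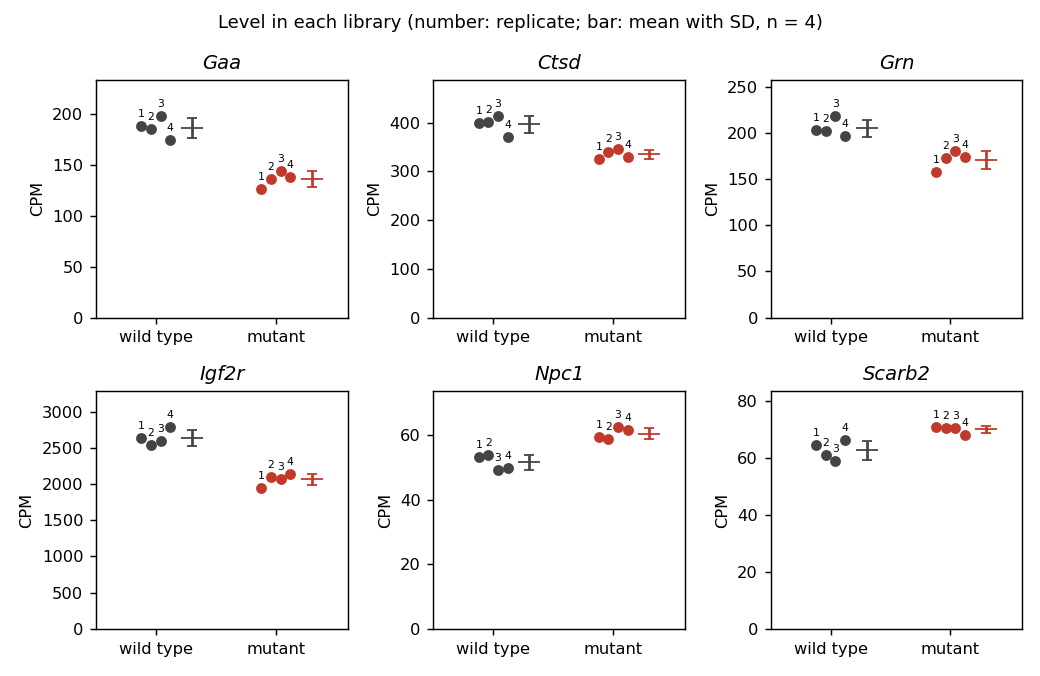
Level in CPM (y axis, from 0) of Gaa, Ctsd, Grn, Igf2r, Npc1 and Scarb2 in each wild-type (grey) and mutant (red) library, numbered by replicate, with the mean and SD (n = 4) at the right of each group. The groups do not overlap in any of the 6 plots, Npc1 and Scarb2 being higher in the mutants and the other 4 genes lower in them.

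The promoter windows of these 3 genes are shown because they differ in CACGTG, a core E-box that TFEB factors are known to bind. Only this form and the longer form given below were counted, and other E-box letters were not. The sequences are the 250 bases before the RefSeq start (GRCm38.p6), 5′ to 3′ on the strand of the gene, with each CACGTG in capitals. The windows lie at chr7:142387828-142388077 (minus strand) for Ctsd, at chr11:119267713-119267962 (plus strand) for Gaa and at chr11:102430257-102430506 (plus strand) for Grn.
Ctsd: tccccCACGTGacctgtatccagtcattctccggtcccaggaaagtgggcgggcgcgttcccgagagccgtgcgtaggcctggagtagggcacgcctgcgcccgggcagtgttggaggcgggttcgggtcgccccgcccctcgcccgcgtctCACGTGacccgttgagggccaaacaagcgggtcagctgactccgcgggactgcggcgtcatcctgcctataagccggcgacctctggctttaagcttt
Gaa: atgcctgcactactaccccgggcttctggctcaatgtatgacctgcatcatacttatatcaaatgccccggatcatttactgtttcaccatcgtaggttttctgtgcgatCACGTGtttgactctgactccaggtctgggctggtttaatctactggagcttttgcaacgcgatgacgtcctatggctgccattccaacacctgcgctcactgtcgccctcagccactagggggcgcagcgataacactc
Grn: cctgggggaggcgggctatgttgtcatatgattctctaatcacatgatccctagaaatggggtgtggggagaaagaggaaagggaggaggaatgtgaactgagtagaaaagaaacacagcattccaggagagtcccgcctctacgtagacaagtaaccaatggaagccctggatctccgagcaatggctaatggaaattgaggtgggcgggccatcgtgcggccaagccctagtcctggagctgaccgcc
Ctsd held 2 copies, beginning 245 and 98 bases before the start, Gaa held 1 copy, 140 bases before it, and Grn held none in this window.

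A window from 250 bases before to 50 after the start was given for 34 of the 39 genes. CACGTG, which reads the same on both strands, was present in a window of 13 of the 34 (38.2%), against 8.09% of all 27025 genes with a window and 11.8% of the 10248 that were also tested. The longer form TCACGTGA, which contains it, was present in 5 of the 34 (14.7%), against 1.12% and 2.17%. The median difference between the groups was −0.11, with 12 of 13 genes below 0, where CACGTG was present, and −0.13, with 15 of 21 below 0, where it was not. These matches are a description of letters and show no binding.

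All 9 protease genes had differences below 0, and Ctsd alone was called. Ctsb and Ctsl, cysteine cathepsins of broad specificity, stood at −0.17 ± 0.052 and −0.18 ± 0.054 on the log2 scale (SE) and did not overlap between the groups, with limma adjusted p of 0.130 and 0.116. Tpp1, a tripeptidyl peptidase, did not overlap either and stood at −0.14 (95% interval −0.25 to −0.02). Ctsc, which activates proteases of immune cells, stood at −0.20, and Ctsz, a carboxypeptidase, at −0.13. Ctsa, which also protects the sialidase Neu1, stood at −0.08, Ctsh, an aminopeptidase, at −0.07, and Lgmn, the asparaginyl endopeptidase legumain, at −0.07. The interval of Ctsz ran from −0.30 to 0.03. Those of Ctsa, Ctsh and Lgmn also included 0 and reached −0.20, −0.32 and −0.21. Ctsb shares 12.8% and Ctsa 17.4% of its exon bases with tested genes on the opposite strand, and Ctsl shares 26.8% with gene models that have no row in the table. Over the module 16 genes share exon bases with another gene, at most 39.9% (Arsb), and the sources used here do not state whether counting used strand.

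Of the 5 genes of glycogen and glycoprotein breakdown Gaa alone was called. Man2b1, an alpha-mannosidase, stood at −0.19 ± 0.074 (SE) and had overlapping groups. Fuca1, the lysosomal fucosidase, and Neu1, the sialidase, both stood at −0.15. Manba, the beta-mannosidase, stood at 0.02, with an interval from −0.17 to 0.21 that holds the value of Fuca1 but not that of Gaa.

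None of the 7 sphingolipid genes was called by limma, although 6 lay below 0 and 3 had an unadjusted p under 0.05 (background 7.85% of all genes tested in that direction). Glb1, the beta-galactosidase of GM ganglioside and keratan sulfate breakdown, came closest. It stood at 46.9, 43.8, 43.1 and 41 CPM in wild type and at 35.6, 36.8, 37.9 and 30.8 CPM in the mutants. The groups did not overlap and mutant replicate 4 was lowest, at a log2 difference of −0.31 ± 0.077 (SE; limma adjusted p = 0.0552). Glb1 was called with a filter at 5 CPM, with robust variance estimation and when mutant replicate 3 was left out.

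Arsa, the sulfatase that degrades sulfatide, stood at −0.37 ± 0.12 (SE; limma adjusted p = 0.161), with mutant values from 13.4 to 20.6 CPM and wild-type values from 20.3 to 24.9 CPM. Hexa, a hexosaminidase subunit, stood at −0.19 and had overlapping groups. Psap, the precursor of the saposins that help these enzymes reach their lipids, had the highest level per kb of this group (185 CPM per kb in wild type). It stood at 514, 489, 488 and 471 CPM in wild type and at 423, 479, 487 and 487 CPM in the mutants. Mutant replicate 1 lay below the wild-type range and the other 3 within it. The log2 difference was −0.07 ± 0.054 (SE). Gla, the alpha-galactosidase, stood at −0.11 ± 0.18 (SE) from 36 to 87 counts per library, the smallest counts of the module. Smpd1, the acid sphingomyelinase, stood at −0.05 and Asah1, the acid ceramidase, at 0.03.

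The 7 genes of glycosaminoglycan breakdown were closest to no net difference among the soluble enzymes, with a median of −0.02, no call by limma and 1 gene at an unadjusted p under 0.05. That gene was Gusb, the beta-glucuronidase, which was also the highest of the group per kb. It stood at 62.6, 51, 54.1 and 54 CPM in wild type and at 47.4, 48.9, 49.2 and 52.8 CPM in the mutants. Mutant replicate 4 lay above wild-type replicate 2, so the groups overlapped, at a log2 difference of −0.16 ± 0.071 (SE). Arsb and Galns, both sulfatases, stood at −0.18 and −0.13. Idua, Sgsh and Naglu, enzymes of heparan sulfate breakdown, stood at −0.02, −0.0075 and 0.03. Ids, the iduronate sulfatase, stood at 0.18 ± 0.10 (SE) with overlapping groups.

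Of the 3 genes of other lipid handling in the lumen, Npc2, a cholesterol carrier, had the smallest p. It stood at 124, 122, 124 and 120 CPM in wild type and at 105, 104, 114 and 116 CPM in the mutants. The groups did not overlap, but with a log2 difference of −0.16 ± 0.053 (SE) it was not called (limma adjusted p = 0.148). Lipa, the acid lipase, and Ppt1, which removes palmitate from proteins, stood at 0.08 and 0.05.

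The 7 membrane protein genes went both ways. Their summed level was 867 ± 7.26 CPM in wild type and 867 ± 38.1 CPM in the mutants (SD, n = 4), whereas that of the 32 other genes was 3066 ± 93.6 and 2765 ± 85.8 CPM, a difference of −9.83%. Lamp1 and Lamp2, the most abundant of the 7, weigh most in the membrane sum. The difference between these sets of genes was not tested. None of the 7 was called by limma, and 2 had an unadjusted p under 0.05, both higher (background 6.94% of all genes tested).

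Npc1, the membrane partner of Npc2 in the export of cholesterol, stood at 53.1, 53.9, 49.1 and 49.8 CPM in wild type and at 59.3, 58.6, 62.3 and 61.5 CPM in the mutants. Every mutant library was higher than every wild-type library, at a log2 difference of 0.23 ± 0.059 (SE; limma adjusted p = 0.0587). Npc1 and its soluble partner Npc2 thus had differences of opposite sign, with intervals of 0.11 to 0.36 and −0.28 to −0.05 that did not meet. Neither gene was called. Npc1 had the highest difference of the module, and the intervals are not adjusted for the choice of this pair. Npc1 lies on the same chromosome as the deleted gene Mib1, with 6 tested genes between them in the GRCm38 annotation, and the part of that position in its difference was not tested. Scarb2, the sorting receptor of glucocerebrosidase, stood at 0.16 ± 0.057 (SE; limma adjusted p = 0.192), from 58.8 to 66.3 CPM in wild type and from 68 to 70.7 CPM in the mutants.

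Lamp1, a major glycoprotein of the lysosomal membrane and the highest of these genes per kb (151 CPM per kb in wild type), stood at 339, 336, 335 and 334 CPM in wild type and at 333, 317, 320 and 292 CPM in the mutants. Mutant replicate 1 missed the wild-type range by a small margin. Lamp1 was not called, at −0.09 ± 0.048 on the log2 scale (SE; adjusted p of 0.410 by limma). Its relative Lamp2, which chaperone-mediated autophagy needs, stood at 0.06, from 231 to 295 CPM in the mutants, a range that held all 4 wild-type libraries. Mcoln1, a calcium channel of the lysosome, stood at −0.14, the tetraspanin gene Cd63 at −0.05 and Cln3 at −0.03.

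Other genes of the lysosome were compared from lists that share no member with the module. Among 36 further lysosomal genes 1 fell and none rose, 26 lay below 0 and the median was −0.06. The fall was that of Ctss (ENSMUSG00000038642), a cathepsin of antigen-presenting cells, which stood at 11.3, 10.8, 12.2 and 9.72 CPM in wild type and at 5.95, 8.08, 4.56 and 6.91 CPM in the mutants. The groups did not overlap, and on the log2 scale Ctss fell by 0.81 ± 0.17 (SE), at an adjusted p of 0.0192 by limma. Like Ctsd, it lost the call without wild-type replicate 1, 2 or 3 (adjusted p = 0.0687, 0.0637 and 0.0739).

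Among 25 genes that sort proteins to the lysosome 1 fell and none rose. Igf2r (ENSMUSG00000023830), the large mannose phosphate receptor, which also clears the growth factor Igf2, had a mean of 2635 ± 105 CPM in wild type and 2063 ± 81.1 CPM in the mutants (SD, n = 4). The wild-type libraries ran from 2535 to 2782 CPM and the mutants from 1950 to 2141 CPM, without overlap. On the log2 scale Igf2r fell by 0.35 ± 0.053 (SE), at an adjusted p of 0.00216 by limma, and it kept its call whichever library was left out. The other 24 genes had no call, and over all 25, Igf2r included, the median was −0.03 with 14 below 0.

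No gene was called by limma among 18 proton pump subunits, 21 genes of the TFEB factors and of mTORC1 at the lysosome, or 25 autophagy genes, in the fit reported or in any of the 22 alternatives, voom included. At an unadjusted p under 0.05 the counts were 0, 1 and 0. The smallest p of each list belonged to Atp6v1h, a pump subunit (0.12 ± 0.065 on the log2 scale, SE), Lamtor1, which anchors mTORC1 (−0.17 ± 0.076), and Atg7, an activating enzyme of autophagy (−0.18 ± 0.084). The list medians were 0.03, −0.0059 and 0.0060, with 5 of 18, 11 of 21 and 9 of 25 below 0, beside 30 of 39 in the module.

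Marker lists of cell types went in different directions. Over all genes tested 1.25% were called lower and 0.99% higher. Of 19 macrophage markers all 19 lay below 0 and 3 fell, the lysozyme gene Lyz2 (−0.88), the receptor adaptor gene Tyrobp (−1.15) and the complement gene C1qc (−0.86), and the list median was −0.62. Their summed level was 180, 143, 154 and 154 CPM in wild-type replicates 1 to 4 and 99, 124, 125 and 103 CPM in the mutants. No marker was at 0 in any library, but several had few counts, such as Itgb2 (5 to 16 per library), Cd14 (6 to 11) and Aif1 (6 to 14). The macrophage sums did not overlap between the groups. Without Cd68 and Laptm5, which also encode lysosomal proteins, all 17 remaining macrophage markers lay below 0, with a median of −0.67. Of the 14 endothelial markers 13 lay below 0 and 3 fell, with sums of 1573 to 1635 CPM in wild type and 1364 to 1440 CPM in the mutants, and of 10 erythroid markers 9 lay below 0 and 2 fell, with sums of 3022 to 4119 and 1981 to 3252 CPM. The 14 cardiomyocyte markers had no call by limma and overlapping sums. At an unadjusted p under 0.05 there were 4 of these 14, all lower (background 7.85% of all genes tested). For 2 of them, Tnnt2 and Myl2, every mutant library lay below every wild-type library (14.3%, background 4.65%). The same held for 7 of the 14 endothelial (50%), 4 of the 19 macrophage (21.1%) and 2 of the 10 erythroid markers (20%). In these lists, in the same order, 10, 13 and 6 markers had an unadjusted p under 0.05, all lower. Of 8 smooth muscle and pericyte markers 2 rose, Acta2 (0.36) and Cnn1 (0.30), and the list median was 0.14. The 3 below 0 were Myh11 (−0.46, 7 to 44 counts per library), Kcnj8 (−0.33) and Pdgfrb (−0.06). For Kcnj8 every mutant library lay below every wild-type library. The sums ran from 1176 to 1353 CPM in wild type and from 1490 to 1651 CPM in the mutants, without overlap. Acta2 weighs most in them, with a mean of 846 CPM in wild type and 1088 CPM in the mutants. Of 10 fibroblast and cushion markers 1 fell (list median −0.04). Of 8 epicardial markers none was called by limma (list median 0.05), and both lists had overlapping sums. At an unadjusted p under 0.05 there were 3 epicardial markers, 1 lower and 2 higher (background 7.85% lower and 6.94% higher). The part of these cell types in the lysosomal differences was not tested, and in bulk tissue fewer cells of a type and less RNA per cell cannot be told apart.

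**Figure D4:**
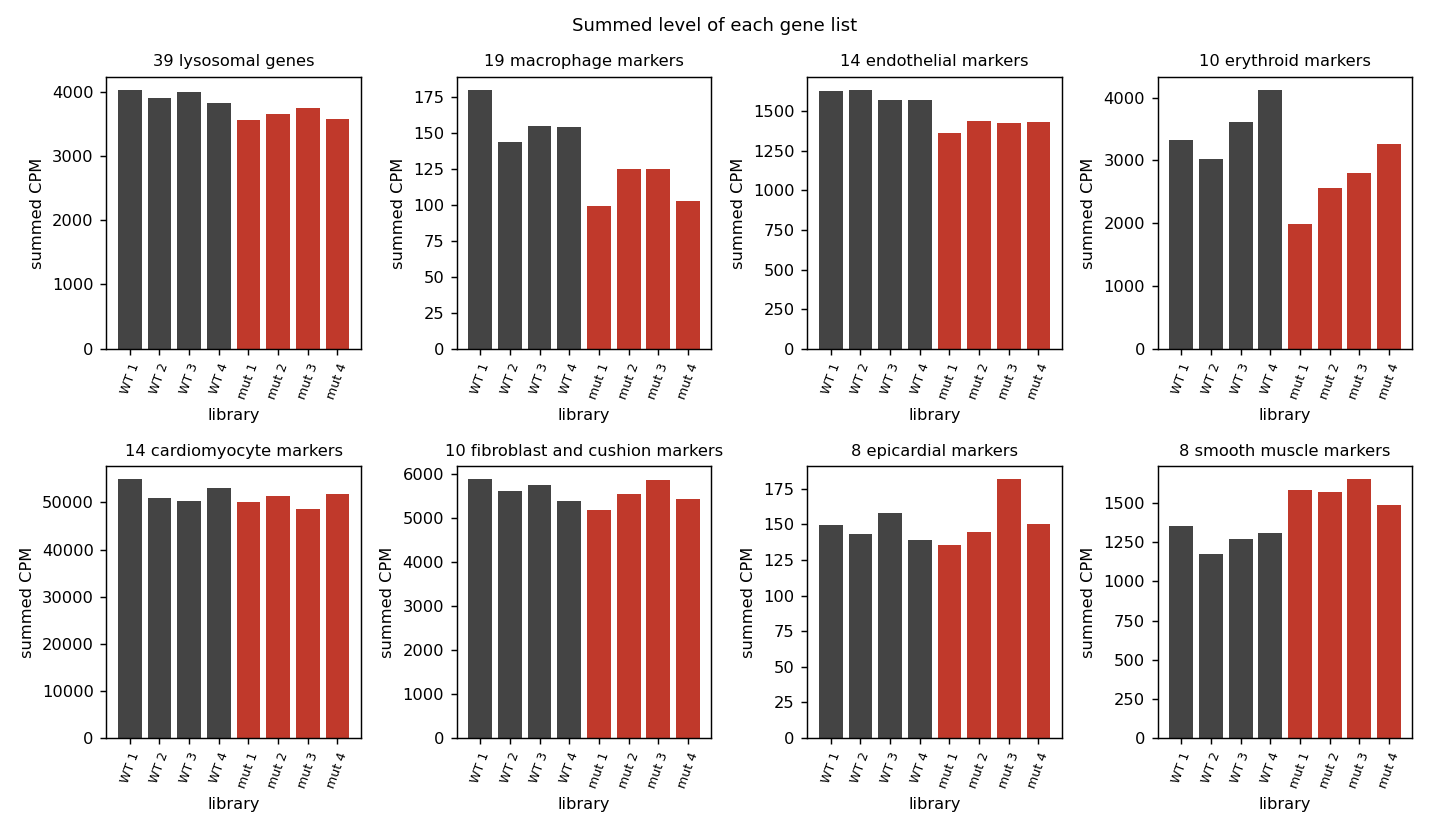
Summed CPM (y axis, from 0) of the 39 lysosomal genes and of 7 marker lists in each wild-type (WT, grey) and mutant (mut, red) library. The lysosomal, macrophage and endothelial sums are lower in every mutant library than in any wild-type library, the smooth muscle sums are higher, and the other 4 lists overlap.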

How the data were processed

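Polyadenylated RNA of 8 pooled ventricle samples was read from 1 end. Per the submitters' processing notes, the tools were cutadapt 1.2.1, RSEM 1.16, Bowtie2 (given as 0.12.7), limma and edgeR, and the build was mm9; how genes were chosen for the table was not given. The values deposited by the authors are a score: log2 CPM with a prior of 0.5 counts, times a constant per library (16.0 to 16.1). Division by that constant gave log2 CPM, and 100% of the values then returned whole counts within 0.001. Symbols and transcript lengths (longest protein-coding transcript) came from GENCODE M21, which matched 13428 of 13869 identifiers, and promoters from RefSeq on GRCm38.p6, a build other than that of the reads.

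The 13740 genes whose mean log2 CPM was 0 or more entered a limma fit (version 3.58.1, R 4.3.3; eBayes with a trend, group as only term). Two-sided p-values received a Benjamini-Hochberg adjustment across these genes. Called genes have an adjusted p under 0.05, and for these "fell" or "rose" is used. A difference is the mutant minus the wild-type mean of log2 CPM. Gene lists, members and tests were chosen with earlier results of these data known. Full values are given for called members and, per role, for the member of smallest p and of highest CPM per kb; for other lists, for called genes or the gene of smallest p. The 22 alternatives covered pseudocount, filter, scaling, variance model, voom on the recovered counts, replicate number as a block, threshold and each library left out. No values column was left unmapped.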

Additional observations from a re-analysis of the deposited data

Results flagged for a closer look

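In the 78 groups of 4 libraries formed by the 39 genes, 5 held a library far from the other 3 by Dixon's ratio, and chance alone flags about 1 group in 20. Psap in mutant replicate 1 stood at 423 CPM, below 479 to 487 CPM in the other mutants. Scarb2 in mutant replicate 4 stood at 68 CPM, below 70.5 to 70.7 CPM. Manba in wild-type replicate 2 stood at 75.2 CPM, above 62.8 to 64.8 CPM. Lamp2 in wild-type replicate 4 stood at 264 CPM, above 243 to 245 CPM. Sgsh in wild-type replicate 1 stood at 16.9 CPM (117 counts), above 13.9 to 14.3 CPM. None of these genes was called.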

How the results depend on the processing

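Of the 22 alternatives, none turned the median of the module, which lay between −0.13 and −0.087 with a library left out and between −0.11 and −0.089 otherwise, and 28 to 33 genes lay below 0. Mib1, Gaa and Igf2r kept their calls in all fits at the threshold of 0.05. With no trend in the variance model 179 genes were called over the table and 1 in the module (Gaa), with 0 among the proteases, progranulin and the other lysosomal genes. An adjusted p of 0.01 gave 119 and 1, again with 0 in those 3 lists, and an adjusted p of 0.1 gave 551 and 5, with 1 sphingolipid gene (Glb1) and 1 membrane protein gene (Npc1) added. The filter at 5 CPM and robust variance each called 1 sphingolipid gene, and the column constants left in place called 1 membrane protein gene, Npc1. With a library left out the calls ran from 146 to 477 over all genes (146, 147 and 161 without wild-type replicate 1, 2 and 3, 183 without mutant replicate 2 and 477 without mutant replicate 3) and from 1 to 4 in the module, and from 0 to 1 for proteases, sphingolipid breakdown, progranulin and the other lysosomal genes. Fewer samples enter those fits; the cause of the other changes was not tested. Signs turned for genes near 0: Idua under quantile normalization (0.0035), Sgsh under quantile normalization (0.022), with the constants in place (0.0013) and with voom (0.00026), and Naglu with voom (−0.00073). With a library left out Sgsh ran from −0.072 to 0.059, Naglu from −0.018 to 0.14, Idua from −0.087 to 0.070, Manba from −0.067 to 0.081, Lamp2 from −0.0055 to 0.11, Asah1 from −0.014 to 0.066, Gla from −0.22 to 0.0056 and Ctsh from −0.16 to 0.012. Replicate numbers occur in both groups, but libraries of the same number had deviations correlated at −0.038 to 0.10 and 1 of 8 resembled its own number best, so they were not paired; with the replicate block the genes called of all genes tested numbered 240, and 3 were members. Gla had the fewest counts of the module, 36 to 87 per library, and an interval from −0.50 to 0.28.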
